A study of Mus musculus with 2 samples.

Results

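The cells described here were heart macrophages high in the folate receptor gene Folr2 and the haemoglobin scavenger receptor gene Cd163. Macrophages were taken as cells whose mean log value of Lyz2, C1qa, C1qb and Fcer1g was at least 1.5 and above that of the fibroblast genes Dcn, Col1a2, Lum and Col3a1. Folr2, Cd163, F13a1, Cd209d, Cd209f and Fcna were each z-scored over the 247 macrophages, and the 80 macrophages with the highest mean z were called members, so members were chosen by measured values of these 6 genes. They were 80 of 247 macrophages and of 1426 cells. The 6 genes are given below as description only.

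The cells came from hearts of C57BL/6 mice aged 20 to 22 months that carry p16-FDR, a transgene with an FLP recombinase and a diphtheria toxin receptor fused to mCherry. mCherry-positive cells were sorted and profiled with the 10X 3' v3 kit, which tags each captured RNA with a molecular barcode so that molecules (UMIs) are counted. There were 2 samples of 1 group, with no unsorted or mCherry-negative group, so every cell was from an old, reporter-positive heart sort. The reporter is named for p16, a product of Cdkn2a. Cdkn2a is counted here per gene, not split by product. The number of animals behind each sample is not stated in the labels.

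Cell names carry the prefixes Heart1 and Heart2, called libraries here. Heart1 held 266 cells with 3304045 UMIs and Heart2 held 1160 with 10632723, and 0 barcodes were shared. Heart2 supplied 78 members among 210 macrophages (37.1%, exact binomial interval 30.6 to 44.1%) and Heart1 supplied 2 among 37 (5.41%, 0.66 to 18.2%). The comparison of members with other macrophages was therefore made within Heart2, where 78 members held 868219 UMIs and 132 other macrophages held 1220229. Members had a median of 11365 UMIs per cell and other macrophages 8601, and 1 predicted doublet was present in each set. Levels are UMIs per 1000000 UMIs of the summed cells (CPM), with 95% Poisson or binomial intervals that cover counting error only. Cells of 1 library are not replicates, so this comparison has no test. A gene was called 2-fold apart when log2(CPM + 10) differed by at least 1, among genes with a mean of at least 50 CPM. That mean is over the members and the others, so a gene can pass through its level in 1 set alone.

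Macrophages of the heart include cells seeded before birth that renew locally and cells replenished from blood monocytes. Long-lived resident macrophages are known for Lyve1, Timd4, Folr2, Mrc1 and Cd163, for taking up dying cells and debris and for handling iron. Monocyte-derived cells are known for the chemokine receptor Ccr2, and a further population for high MHC class II, the molecules that present peptides to CD4+ T cells. The Cd209 genes encode C-type lectins related to human DC-SIGN that bind sugars on microbes and host cells.

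By the macrophage markers outside the rule, members and other macrophages of Heart2 were alike in class. C1qc, a complement subunit, stood at 6804 and 5719 CPM, and the macrophage colony stimulating factor receptor Csf1r at 1618 and 1039 CPM. Adgre1, which encodes F4/80, stood at 620.8 and 567.1 CPM, and Cd68 at 681.9 and 646.6 CPM. All 78 members had a UMI of each of these 4 genes.

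The 6 genes that chose the set differed in how many members carried them. Folr2 (chromosome 7, GRCm38 101839988 to 101857194) had a UMI in all 78 Heart2 members, at 2073 CPM, and in 71 of 132 other macrophages, at 604.8 CPM. F13a1, coagulation factor XIII subunit A, was likewise in all 78 members (3125 CPM) and in 93 others (1283 CPM). Cd163 was in 66 members (813.2 CPM) and 42 others (138.5 CPM), and the lectin gene Fcna, ficolin A, in 75 (832.7 CPM) and 33 (110.6 CPM). Cd209f was in 72 members (2461 CPM) and 19 others (146.7 CPM). Cd209d was the least frequent, in 43 members (493.0 CPM) and 2 others (4.92 CPM). Of the 78 members 34 had a UMI of all 6 genes, 32 of 5 and 12 of 4, while 0 of the 132 others had all 6 and 8 had 5. The score fell without a step. The last cells inside scored 0.386 and 0.377 and the first outside 0.349 and 0.342, so the number of members is set by the rule and not by a gap.

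**Figure D1:**
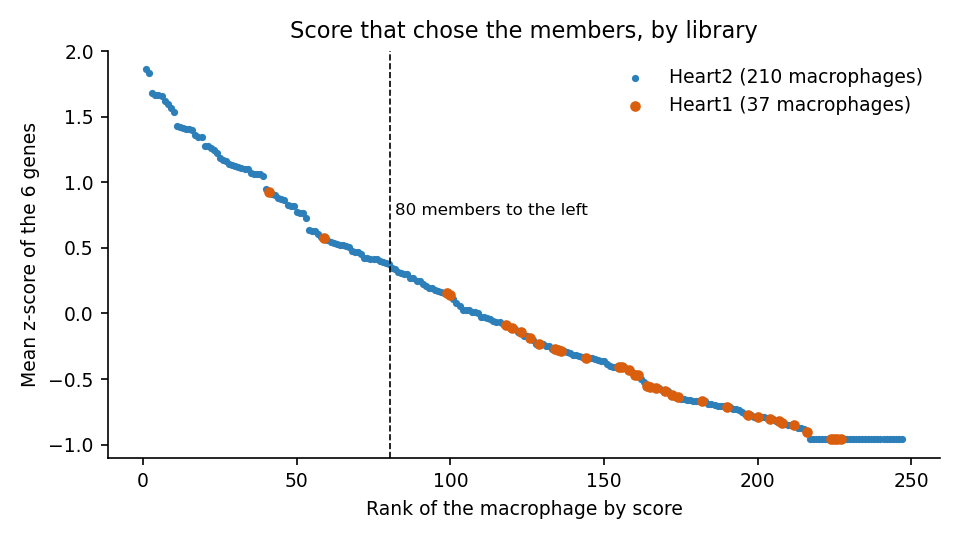
Mean z-score of the 6 genes (vertical axis) against the rank of each of the 247 macrophages, Heart2 in blue and Heart1 in orange, with the dashed line after rank 80. The score declines from 1.86 to -0.96 with no gap at the line, and the 2 Heart1 members hold ranks 41 and 59.

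Other Cd209 genes were among the most unequal genes beside the rule. The Cd209 genes lie in a cluster on chromosome 8, with Cd209b at 3917655 to 3926844 (minus strand) and Cd209g at 4134098 to 4137707 (plus strand). Cd209b had 333 UMIs in 37 of 78 members (383.5 CPM, 343.5 to 427.0) and 3 UMIs in 2 of 132 others (2.46 CPM, 0.51 to 7.19), a ratio of 156-fold (52.9 to 760.3) and a log2 difference of 4.98. Thinned to 3000 UMIs per cell, 31 members and 1 other macrophage had a UMI of it. In Heart2 fibroblasts, which should lack it, 2 of 939 cells had a UMI. Cd209g had UMIs in 68 members (775.2 CPM) and 11 others (36.1 CPM), a log2 difference of 4.09. Cd209a was in 34 members (198.1 CPM) and 3 others (44.3 CPM), where 1 cell held 96.3% of the others' UMIs. With that cell and the top member left out, its log2 difference was 4.02 in place of 1.94.

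Cd209g could not be counted as independent of Cd209f. Their annotated transcripts, 1169 and 1186 bases long, were 91.5% identical over 1164 aligned bases and shared a run of 416 bases. Reads that fall within this run cannot be told apart by sequence, and how they were counted was not tested. Cd209b and Cd209d were 78.3% identical with a longest shared run of 25 bases. The windows from 250 bases before to 50 after the annotated start, from RefSeq on GRCm38.p6, show how close the pair is: Cd209f at chr8:4105715-4106014 on the minus strand and Cd209g at chr8:4134486-4134785 on the plus strand are 91.8% identical over 281 aligned bases. They are printed because the copies carry both a rule gene and one of the most unequal genes outside it.
Cd209f: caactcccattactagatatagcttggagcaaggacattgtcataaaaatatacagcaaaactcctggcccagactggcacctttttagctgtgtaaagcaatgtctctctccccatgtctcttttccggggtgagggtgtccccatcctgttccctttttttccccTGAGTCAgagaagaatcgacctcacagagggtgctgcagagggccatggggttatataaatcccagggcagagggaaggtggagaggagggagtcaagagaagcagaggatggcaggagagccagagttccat
Cd209g: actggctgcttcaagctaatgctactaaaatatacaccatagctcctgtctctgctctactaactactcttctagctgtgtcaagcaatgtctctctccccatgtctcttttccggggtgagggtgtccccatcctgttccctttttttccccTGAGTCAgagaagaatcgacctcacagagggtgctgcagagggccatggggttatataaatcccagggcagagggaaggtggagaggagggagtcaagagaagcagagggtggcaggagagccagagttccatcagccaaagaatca
Capitals mark the reverse complement of TGACTCA, the letters that AP-1 factors bind, which begins 83 bases before the start in Cd209f and 97 in Cd209g. Both strands were searched, and 5.2% of 32851 RefSeq promoter windows hold these letters. The windows of Cd209a, Cd209b and Cd209d hold none, and neither GAGGAAG (13.6% of windows) nor TGCTGAC (4.67%) is in any of the 5 Cd209 windows. These are matches of letters, not measured sites.

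Of 2913 genes compared in Heart2 outside the 14 rule and score genes, 81 (2.78%) were at least 2-fold higher in members and 57 (1.96%) at least 2-fold lower, and the median log2 difference of all of them was 0.05.

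MHC class II genes were the lowest group. Of 7 tested genes of that list, 6 were at least 2-fold lower and 0 higher, with a median log2 difference of -2.60. The class II beta chain gene H2-Eb1 stood at 1168 CPM in members (1097 to 1242) and 9501 in others (9329 to 9675), 8.14 times higher in the others, a log2 difference of -3.01. H2-Ab1 stood at 1088 and 8762 CPM (log2 difference -3.0) and the alpha chain gene H2-Aa at 1342 and 8181 CPM (-2.60). Cd74, the invariant chain that accompanies class II molecules, stood at 5123 and 26740 CPM (-2.38). The peptide-loading genes H2-DMb1 (-2.79) and H2-DMa (-1.84) were lower too, and the costimulatory gene Cd86 was not (158.9 and 154.9 CPM).

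Cd74 had a UMI in 83.3% of members and 90.9% of others, against 3.62% of Heart2 fibroblasts, whose median depth was 8772 UMIs. H2-Aa had a UMI in 64.1% and 81.1% (thinned, 52.6% and 80.3%), and H2-DMb1 in 39 of 78 members and 85.6% of others. The summed Cd74, H2-Aa, H2-Ab1 and H2-Eb1 per cell had a median of 15.0 UMIs per 10000 in members, with quartiles of 2.42 and 126.1 and a highest cell of 649.9. In the others the median was 626.0, with quartiles of 91.1 and 1097 and a highest cell of 1718. Only 1 of 78 members lay above the others' median, but the ranges overlapped, and members ran from 0 to a level that many others share.

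**Figure D2:**
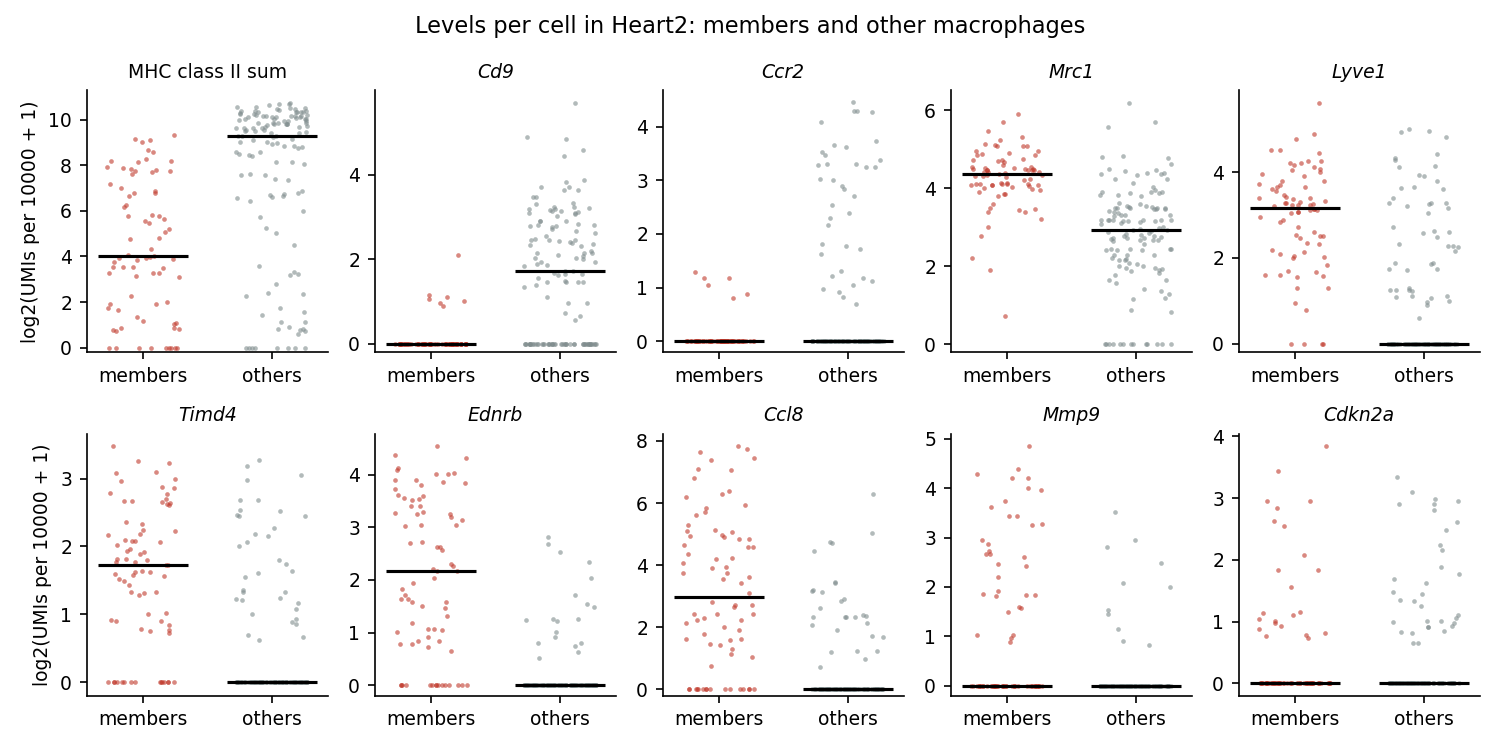
Level per cell in Heart2, as log2(UMIs per 10000 + 1), for 78 members (red) and 132 other macrophages (grey), 1 dot a cell and a bar at the median. Class II, Cd9 and Ccr2 sit lower in members, Mrc1, Lyve1, Timd4, Ednrb and Ccl8 higher, and Cdkn2a is at 0 in most cells of both.

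Genes of monocytes and recruited macrophages were also low. Of 10 tested genes 5 were at least 2-fold lower and 0 higher (median -0.98). Ccr2, the receptor by which monocytes follow Ccl2, had 6 UMIs in 6 members (6.91 CPM, 2.54 to 15.0) and 223 in 38 others (182.8 CPM, 159.6 to 208.4), a log2 difference of -3.51. In cells thinned to the same depth 3.85% of members and 22.0% of others had a Ccr2 UMI. The fractalkine receptor gene Cx3cr1 stood at 34.6 and 345.8 CPM (-3.0), in 10 of 78 and 88 of 132 cells. Ccr2 and Cx3cr1 stood under 50 CPM in members and passed the minimum level through the others. Cd52 (-2.0), S100a4 (-1.42) and S100a6 (-1.15) were the other genes called. Ly6c2, Plac8 and Vcan, genes of classical monocytes, had 0 UMIs in members and others alike.

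Of 10 lipid-associated macrophage genes that passed the minimum level, 2 were at least 2-fold lower and 0 higher, and the median was 0.03. Cd9, a tetraspanin, had the lowest difference of the tested genes on the log2(CPM + 10) scale: 12 UMIs in 7 members (13.8 CPM) against 463 in 85 others (379.4 CPM), a log2 difference of -4.03. It also had a UMI in 90.5% of Heart2 fibroblasts, and the part of fibroblast RNA in its difference was not tested. Lgals3, galectin-3, stood at 253.4 and 663.8 CPM (-1.36). Apoe (26330 and 23630 CPM) and the lipid receptor Trem2 (347.8 and 349.1 CPM) were within 2-fold. The elastase gene Mmp12 had 0 UMIs in members and 101 in 17 others, which is at least 23.9-fold lower when 3 UMIs over the set are taken as the floor, and fell under the minimum level of that comparison. Spp1 and Itgax (24 UMIs each) and Gpnmb (7 UMIs) were also seen in the others and at 0 in members, under the same minimum. Gngt2, a G protein gamma subunit, had 3 UMIs in members and 130 in others (-3.12). Cd9 and Gngt2 stood under 50 CPM in members and passed the minimum level through the others.

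Genes of resident macrophages beside the rule were higher. Of 29 tested, 16 were at least 2-fold higher and 0 lower, with a median log2 difference of 1.09. This list and all others were drawn up with earlier results of these data known, and 3 of the 16 are Cd209 genes. Cd209a, Cd209b, Cd209g and Ednrb stood under 50 CPM in the others and passed the minimum level through the members. Mrc1, the mannose receptor CD206, stood at 2059 CPM in members (1965 to 2157) and 920.3 in others (867.3 to 975.8), and 74 of 78 members lay above the others' median. Lyve1, a hyaluronan receptor, stood at 932.9 and 420.4 CPM (log2 difference 1.13), with a UMI in 74 members and 52 others, but the difference was 0.72 with the top 40 members and 3.55 with the top 120. Timd4, a receptor for phosphatidylserine on dying cells, stood at 269.5 and 90.97 CPM (1.47), with a UMI in 63 members and 36 others. In Heart2 fibroblasts, 1.60% of cells had a Lyve1 UMI and 0 of 939 a Timd4 UMI, which allows a share of up to 0.32%.

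Further resident genes had wider gaps. Ednrb, the endothelin receptor type B, had 501 UMIs in 63 members (577.0 CPM) and 46 in 19 others (37.7 CPM), a log2 difference of 3.62. The lectin Clec10a stood at 685.3 and 96.7 CPM (2.70). Fxyd2 (1.51), the leukotriene C4 synthase gene Ltc4s (1.13) and the selenium carrier Selenop (1.09) were called too. Cbr2 (0.98), Igf1 (0.97), Pf4 (0.78), Maf (0.75) and Stab1 (0.74) were higher by less than 2-fold, while the prostaglandin-degrading Hpgd (0.05) was near level.

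Uptake and iron genes divided. Among 16 tested scavenging and engulfment receptors, 5 were at least 2-fold higher and 1 lower (median 0.53). Beside Mrc1, Lyve1 and Timd4 these were the fatty acid receptor Cd36 (560.9 and 174.6 CPM, 1.63) and the scavenger receptor Colec12 (380.1 and 126.2 CPM, 1.52). The integrin chain Itgb5 was lower (-1.11). Of 13 iron and haem genes 4 were higher and 0 lower (median 0.38). They were Hmox1, which opens the haem ring (592.0 and 226.2 CPM, 1.35), Slc40a1, the iron exporter ferroportin (246.5 and 80.3 CPM, 1.51), the ferroxidase Cp (1.12) and the ferritin receptor Ncoa4 (1.07). Cp stood at 36.9 CPM in the others and passed the minimum level through the members. The ferritin heavy chain Fth1 stood at 10530 and 8959 CPM.

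Of 9 complement genes beside the rule, 3 were higher and 0 lower (median 0.53). Among them C4b stood at 730.2 and 186.9 CPM (1.91) and properdin, Cfp, at 662.3 and 321.3 CPM (1.02). Mouse C4b has a close copy, C4a, and some reads may not be told apart between them. Of 9 growth factor genes 3 were higher and 0 lower (median 0.91). The 3 include Lyve1, a receptor already counted above, beside Gas6, which bridges dying cells to Mertk and Axl (1101 and 418.0 CPM, 1.38), and Igfbp4, which binds insulin-like growth factors (676.1 and 271.3 CPM, 1.29). Fcgrt, the neonatal Fc receptor, was the 1 gene called of 9 on the Fc receptor list (1198 and 552.4 CPM, 1.10), and stood at 0.88 with the top 40 members. Pla2g2d, a secreted phospholipase, stood at 435.4 and 95.1 CPM (2.08).

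Chemokines were called in both directions, 5 higher and 4 lower of 14 tested. Ccl8 had 2796 UMIs in 62 members (3220 CPM, 3102 to 3342) and 334 in 29 others (273.7 CPM, 245.1 to 304.7), a ratio of 11.8-fold and a log2 difference of 3.51. Thinned, 62.8% of members and 18.2% of others had a Ccl8 UMI, and 4.79% of Heart2 fibroblasts did. Ccl24, an eosinophil attractant also called eotaxin-2, was in 76 members (1060 CPM) and 62 others (343.4 CPM, log2 difference 1.60), and Ccl6 stood at 1365 and 554.8 CPM (1.28). Cxcl16 (-1.17), Ccl4 (-1.78) and Cxcl13 (-1.07) were lower. Cxcl10 was lower as well (-2.24), but 1 cell held 98.0% of the others' UMIs, and with the top cell of each set left out the difference was 0.44. The gelatinase Mmp9 stood at 342.1 CPM in 34 members and 27.0 CPM in 11 others (3.25). Mmp9 and Cxcl2 (17.2 CPM in the others) passed the minimum level through the members, and Cxcl10 (27.6 CPM in members) through the others.

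Cxcl2, which attracts neutrophils, had the widest gap on the log2(CPM + 10) scale (1337 and 17.2 CPM, log2 difference 5.63), yet all 1161 of its UMIs lay in 6 of 78 members. Those cells held 419, 360, 258, 122, 1 and 1. The same 6 cells held 310 of the 366 member UMIs of Ier3, 440 of 483 of the AP-1 gene Junb, 160 of 164 of Gadd45b and 196 of 265 of the NF-kappa-B inhibitor Nfkbia. They held 99 Folr2 and 171 Cd209f UMIs. Summed, they stood at 2278 CPM of Cd209f, with 77 of the UMIs in 1 cell, and the other 72 at 2479 CPM. Folr2 stood lower in the 6, at 1319 CPM against 2145 CPM in the other 72. Both are rule genes, so their presence in these members follows from the choice.

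Early response genes rise within minutes of a stimulus or of tissue dissociation. Of 15 tested, 5 were at least 2-fold higher in members and 0 lower, namely Junb, Atf3, Ier3, Dusp1 and Zfp36. Fos was not among them, with 4 UMIs in the 6 cells and 80 in the other 72 members (53.3 and 100.9 CPM) against 158.2 CPM in the other macrophages. With every cell holding a Cxcl2 UMI left out of both sets, 0 of the list were higher and 2 were lower. Junb then went from a log2 difference of 1.89 to -1.15, Dusp1 from 1.77 to -0.11, Zfp36 from 1.48 to -0.41, Nfkbia from 1.31 to -0.34, Gadd45b from 3.16 to -0.43 and Ccl7 from 1.09 to -0.16. The metallothionein Mt2 went from 2.54 to 0.37, Hmox1 from 1.35 to 0.55 and the transcription factor gene Cebpb from 1.67 to 0.34. Without those cells H2-Eb1 stood at -2.97, Cd9 at -3.89, Ccl8 at 3.50 and Timd4 at 1.55, close to their values with all cells. Whether the sort or cell handling bears on these 6 cells was not tested.

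**Figure D3:**
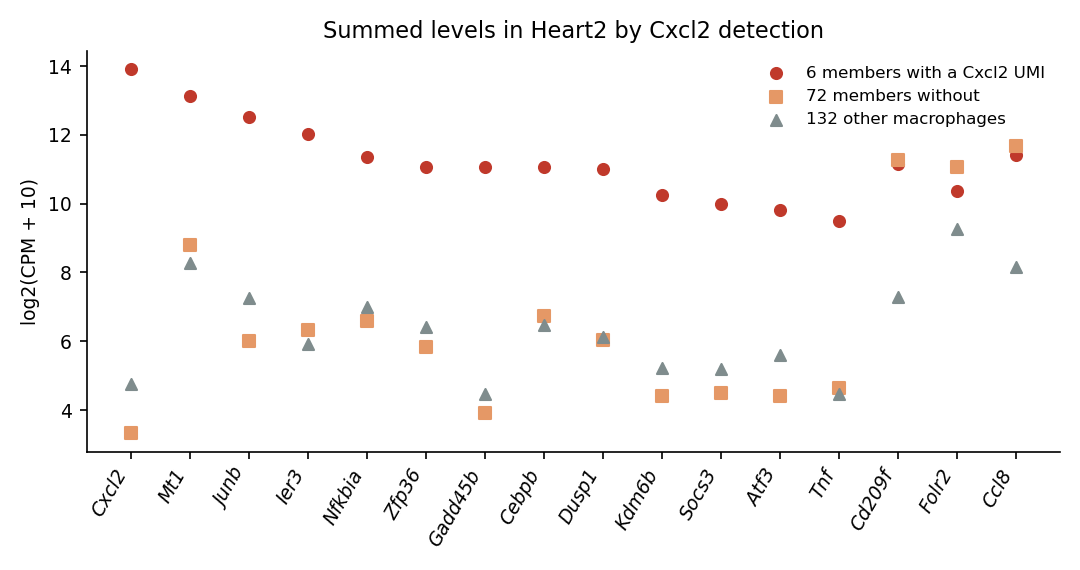
Summed level in Heart2, as log2(CPM + 10), in the 6 members with a Cxcl2 UMI (circles), the 72 members without (squares) and the 132 other macrophages (triangles), for genes picked after their values were seen. From Cxcl2 to Tnf the circles stand far above the squares and triangles, while for Cd209f, Folr2 and Ccl8 both member groups stand above the others.

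Cdkn2a RNA, which the sort bears on, was about as frequent in members as in other macrophages. Cdkn2a (chromosome 4, 89274471 to 89294653, minus strand) had 90 UMIs in 23 of 78 members (29.5%, 19.7 to 40.9%) and 111 in 34 of 132 others (25.8%, 18.5 to 34.1%). The levels were 103.7 CPM (83.4 to 127.4) and 90.97 CPM (74.8 to 109.5), a ratio of 1.14 (0.85 to 1.52). Thinned, the shares were 19.2% (11.2 to 29.7%) and 12.1% (7.09 to 18.9%), and 0.32% of Heart2 fibroblasts had a UMI. The log2 difference of 0.17 depended on the number of members chosen: it was -0.97 with the top 40 and 1.06 with the top 120. Cdkn1a, the p21 gene, stood at 119.8 and 172.1 CPM (-0.49). Of 8 tested genes of the senescence core list, 1 was lower (Hmgb2, -1.12, and -0.73 with the top 40) and 0 higher. Hmgb2 had a UMI in 60.26% of members and 54.55% of others, and stood at -0.88 without the top cell of each set.

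Of 3 cell cycle genes tested, Stmn1 (24 and 254 UMIs, -2.54) and the tubulin gene Tubb5 (-1.13) were lower and 0 were higher. Stmn1 stood at 27.6 CPM in members and passed the minimum level through the others. In the others 1 cell held 42.9% of the Stmn1 UMIs, and the share of cells with a Stmn1 UMI was 23.1% in members and 18.2% in others. Tubb5 had a UMI in 74.36% of members and 62.12% of others. With 120 members Stmn1 stood at -0.68 and Tubb5 at -0.70, both within 2-fold. Without the top cell of each set Stmn1 stood at -1.87 and Tubb5 at -0.89. Mki67, a marker of cycling cells, had a UMI in 1 of 78 members and 5 of 132 others.

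Few genes of the remaining lists were called. The counts were 0 of 7 interferon-stimulated genes and 0 of 11 mitochondrial transcripts. Over all tested genes 2.78% were higher and 1.96% lower, so 0 in lists this short does not set them apart. Of 20 macrophage transcription factor genes, Cebpb was higher and Id3 lower (-1.26, and -0.42 with 120 members). The median mitochondrial share was 5.85% of UMIs in members and 5.43% in others.

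Markers of other cell types were also summed. The 10 fibroblast markers reached 905.3 CPM in members and 440.9 in others, and Gsn was the 1 tested and called (1.31), with 80.1% of its member UMIs in 1 cell. Without the top cell of each set Gsn stood at -0.60. Dendritic cell markers reached 281.0 and 73.8 CPM, of which Cd209a held 198.1 and 44.3. Flt3, Xcr1, Clec9a, Ccr7 and Klrd1 are not among the table's genes. Neutrophil markers reached 375.5 and 50.8 CPM, of which Mmp9 held 342.1 and 27.0. S100a8 stood at 3.46 and 1.64 CPM with Lcn2 at 0. T and NK markers were at 0 and 16.4 CPM, with all 7 in the table at 0 in members. B cell markers reached 385.8 and 303.2 CPM, through Ighm (383.5 and 289.3), with Cd79a and Ms4a1 at 0. Endothelial markers reached 12.7 and 21.3 CPM, cardiomyocyte markers 107.1 and 146.7, erythroid 10.4 and 3.28 and mural 1.15 and 1.64, and the 1 mast marker in the table was at 0.

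To set the 2 libraries side by side, z-scores and the same share of macrophages were taken within each. This gave 12 members of 37 in Heart1 and 68 of 210 in Heart2, 70 of them members by the first choice. The 70 are all 68 of Heart2 and the 2 first-choice members of Heart1. The rest of the 12 in Heart1 were other macrophages by the first choice. Cd209d had 1 UMI in 1 of the 12 and Cd209f 4 UMIs in 2, with 0 in the 25 others of Heart1, so few UMIs of these genes weighed in that choice. UMIs summed per library and set were fitted with limma, with the library as a block, on 2923 genes. By Benjamini-Hochberg adjusted p under 0.05, 13 genes (0.445%) were higher and 10 (0.342%) lower, and 282 genes had an unadjusted p under 0.05. Each of the 23 differed at least 2-fold in each library, and 22 were also 2-fold apart the same way in the first comparison. The fit favours genes with like differences in both libraries. The first comparison uses the same Heart2 macrophages, so neither count is independent support. Without a test, 29 genes (0.992%) were at least 2-fold higher in both libraries and 19 (0.65%) lower. The fit has 1 residual and 7.05 prior degrees of freedom, so its p-values rest mostly on spread pooled over genes. The same cells supplied the choice and the comparison, and p-values measure only spread between these libraries, which may be technical.

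The genes that fell in this fit included class II and monocyte genes. Of 8 tested class II genes 4 fell: H2-Eb1 (log2 difference -2.20, SE 0.34, limma adjusted p = 0.030), H2-DMb1 (-2.09), H2-Aa (-1.90) and Cd74 (-1.74). In Heart1 Cd74 stood at 7566 CPM in 12 members and 17180 in 25 others, and in Heart2 at 5129 and 25190. Ccr2 fell by 3.02 (SE 0.37, limma adjusted p = 0.012), with 4 UMIs in 3 Heart1 members and 50 in 8 others. Lgals3 fell by 2.25 (SE 0.31, limma adjusted p = 0.018), from 4771 to 631.8 CPM in Heart1. Mmp12, Lyz1, Stmn1 and the thymosin gene Tmsb10 fell as well. Lyz1 is a close copy of its neighbour Lyz2, a gene of the macrophage score.

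Among genes that rose, Timd4 rose by 1.67 (SE 0.27, limma adjusted p = 0.036), with 11 UMIs in 5 Heart1 members and 4 in 4 others. Hmox1 rose by 1.63 (SE 0.22, limma adjusted p = 0.018) and Ninj1, a plasma membrane protein involved in cell rupture, by 1.51. Pla2g2d rose by 2.48 (SE 0.28, limma adjusted p = 0.0077), on 10 UMIs in 2 Heart1 members and 1 in the others. Ccl8 rose by 2.70, Ccl24 by 2.25, Ccl7 by 1.81 and Cxcl2 by 4.54. Ier3, Junb, Dusp1, Zfp36 and Nfkbia made up the other 5. With Cxcl2-holding cells left out, Ccl7, Dusp1, Junb, Nfkbia and Zfp36 no longer passed, with differences of 0.61, 0.68, 0.09, 0.15 and 0.29. All 10 lower genes passed again among 51, and 7 of the 13 higher among 60. Without the library block limma called 0 genes in each direction (136 at an unadjusted p under 0.05), so every call depends on pairing the sets within a library. The counts also moved with the number of members, to 5 higher and 2 lower with 40 and to 108 and 49 with 120. With 40, 4 of the 13 higher genes and 0 of the 10 lower genes passed again. With 120, all 13 and all 10 did.

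**Figure D4:**
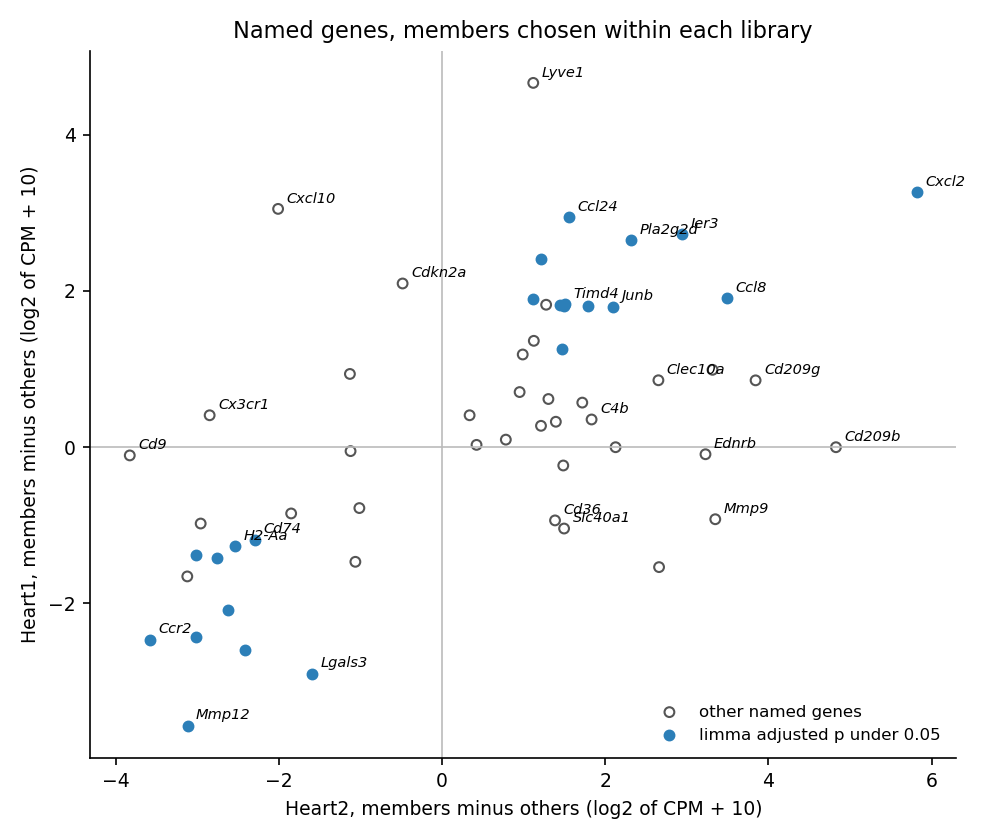
Log2 difference of members minus other macrophages in Heart1 (vertical) against Heart2 (horizontal) for the named genes, members chosen within each library, with filled points for a limma adjusted p under 0.05. Filled points lie in the upper right and lower left, while Cd209b, Ednrb, Mmp9, Cd9 and Cx3cr1 lie far from 0 in Heart2 and near or across 0 in Heart1.

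Several genes with wide gaps in Heart2 did not pass in that fit, with limma adjusted p of 0.37 for Cd9, 0.50 for Ednrb, 0.72 for Mmp9 and 0.58 for Cx3cr1. Cd209b had 0 UMIs in all 37 Heart1 macrophages, Ednrb stood at 16.2 CPM in Heart1 members and 17.9 in others, and Mmp9 and Cd9 differed by -0.92 and -0.10 in Heart1. Slc40a1 (-1.04) and Cd36 (-0.94) were lower in Heart1 members, against 1.5 and 1.38 in Heart2. Lyve1 went the same way in both, by 4.66 in Heart1 (7 of 12 members and 2 of 25 others with a UMI) and 1.12 in Heart2, with a limma adjusted p of 0.14. Cdkn2a was higher in Heart1 members (30 UMIs against 11, 2.10) and lower in Heart2 members (-0.48), with a limma adjusted p of 0.65. Of those 30 UMIs 16 lay in 1 cell, and 8 of 12 Heart1 members and 8 of 25 others had a UMI. In Heart1 Cdkn2a also had a UMI in 72 of 206 fibroblasts (thinned, 16.5%), and the part of free RNA in its Heart1 level was not tested. Of the 81 genes 2-fold higher in Heart2 by the first choice, 59 had the same sign in Heart1, and so had 45 of the 57 lower. The Heart1 signs are those of the 12 members chosen within that library. The share of all tested genes with the same sign was not counted, so these counts have no background beside them.

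Over all macrophages, the Cd209 genes and some of the most unequal genes were nearly missing from Heart1. Cd209d had 1 UMI in 37 Heart1 macrophages (2.88 CPM, 0.07 to 16.1) and 434 in 210 of Heart2 (207.8 CPM, 188.7 to 228.3). Cd209f stood at 11.5 CPM (3.14 to 29.5) and 1109 CPM (1064 to 1155), Cd209b at 0 and 160.9, and Cd209g at 2.88 and 343.3. Ednrb stood at 17.3 and 261.9 CPM, Ccl8 at 89.3 and 1499, and Mmp9 at 5.76 and 158.0. Folr2 (475.4 and 1215 CPM), Cd163 (291.0 and 419.0) and Lyve1 (345.7 and 633.5) differed less, and Lyz2 stood at 25560 and 23110. The rule genes F13a1 (775.0 and 2049 CPM) and Fcna (123.9 and 410.8) were also lower in Heart1. Lgals3 was higher in Heart1, at 3299 against 493.2 CPM. The labels do not say which sample each library is, so library cannot be told apart from animal or preparation.

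Few Heart1 cells entered the set without the Cd209 genes either. With Cd209d and Cd209f dropped from the choice, 3 Heart1 macrophages were among the 80, 70 cells were kept, and 86 genes were 2-fold higher and 53 lower in Heart2. Cd209b then differed by 4.21 and Cd209g by 2.14. The 2 Heart1 members by the first choice had 23 and 28 Folr2 UMIs, 11 and 9 of Cd163 and 33 and 53 of Lyve1. Both had 0 of Cd209d, Cd209b, Cd209g, Cd74, H2-Aa, H2-Ab1 and H2-Eb1. Their Cdkn2a UMIs were 1 and 16.

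Members were not uniform among themselves. Over the 78 Heart2 members, which share a library and differ in depth, Spearman's rho of per-cell levels was 0.51 between Ccl8 and Mmp9 (0.35 after thinning) and -0.37 between Mmp9 and Lyve1 (-0.31). Lyve1 and H2-Aa had a rho of -0.34 (-0.31) and Timd4 and Lyve1 0.29 (0.17). Ccl8 ran from 0 to 226.7 UMIs per 10000 with a median of 6.86, Lyve1 from 0 to 48.5 with a median of 8.03, and Mmp9 had a UMI in 34 of 78 cells. These are descriptions across cells of 1 library.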

How the data were processed

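mCherry-positive heart cells of 2 samples were measured by droplet 3' RNA sequencing, with Cell Ranger 3.0.2 and build mm10 per the submitters' processing notes. The authors deposited 1 table of 15247 genes in 1426 cells whose values are the natural log (ln) of 1 plus UMIs per 10000. This unit was read from the values, and whole UMIs were recovered from their steps (largest gap from a whole number 7e-12). The tool that filtered and normalized the cells is not given in the sources used here, and 0 columns of cells were left unused. Libraries are the prefixes of the cell names, which are not tied to the sample records. Gene positions come from GENCODE on GRCm38, where 15087 symbols matched.

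UMIs were summed per library and set and scaled to CPM. Doublets were predicted with scrublet in scanpy 1.11.5 and kept. A limma fit was planned on both libraries, but Heart1 had 2 members, under the minimum of 5 cells, so the planned fallback, 2-fold differences of log2(CPM + 10) in Heart2 without a test, is the main comparison. The limma 3.58.1 test (R 4.3.3, mean-variance trend, library block, Benjamini-Hochberg adjustment) uses members chosen within each library. The 14 genes of the choice and the scores were left out. The log2 scale with a pseudocount of 10 CPM understates changes of low genes.

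Named genes are Cdkn2a, Ccr2, Timd4 and Lyve1, up to 3 called genes of each of 28 lists (or the tested gene furthest apart), and the 10 highest and 10 lowest. The rule named 50 genes. The limma calls, the other genes of the resident list, and others given beside a list's count were named after their values were seen. The members and lists were chosen with earlier results of these data known. Steps were tested on simulated data. A few genes of the lists are not reported here.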

Additional observations from a re-analysis of the deposited data

How the results depend on the processing

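Counts in Heart2 depended on where low genes were kept and on the number of members. Genes 2-fold higher in members numbered 81, against 151 with 120 members, 147 with cells thinned to 3000 UMIs, 48 with a pseudocount of 50 CPM, 134 with a minimum mean of 20 CPM and 178 with no filter. Genes lower numbered 57, against 35 with a pseudocount of 50 CPM, 101 and 36 with a minimum of 20 and 100 CPM, and 205 with no filter. Of the 81 higher genes, 60 and 65 were shared with the choices of 40 and 120 members. The Cdkn2a difference of 0.17 was -0.97 with 40 members, 1.06 with 120, -0.48 with members chosen within each library and 0.78 with members chosen by Folr2, Cd163, F13a1 and Fcna alone, an alternative added after seeing the data.

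Among genes 2-fold apart, Gsn, Cxcl10 and 6 genes high in the Cxcl2-holding cells turned direction. Gsn was -1.91 with 40 members, -0.61 with predicted doublets left out, -0.61 with macrophages of a fibroblast score above 0.5 left out and -0.60 without its top cell. Cxcl10 was 3.59 with 120 members and 0.44 without its top cell. Leaving out cells with a Cxcl2 UMI turned Nfkbia to -0.34, Junb to -1.15, Dusp1 to -0.11, Gadd45b to -0.43, Zfp36 to -0.41 and Ccl7 to -0.16. The alternatives without top cells and without Cxcl2 cells were added after seeing the data. For named genes, 846 of 1043 values under alternatives moved by less than the 95% counting error of the log2 difference and 185 by more, and 12 changed direction. The 12 cover only genes 2-fold apart, so the Cdkn2a values above are not among them. Macrophage minimums of 1.0 and 2.0 chose the same 80 members, and the minimum mean level, or no filter, changes only which genes are compared. Values under these settings could not move, so the 846 overstates how stable the values were.

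The limma counts of 13 higher and 10 lower genes moved under most settings, and the cause was not tested. They were 0 and 0 with no replicate block, where the libraries' paired sets are treated as unpaired (136 genes at an unadjusted p under 0.05), 5 and 2 with 40 members, 108 and 49 with 120, 44 and 31 thinned, 21 and 17 without doublets, 6 and 5 without macrophages of a fibroblast score above 0.5, 21 and 16 with a pseudocount of 2 CPM, 65 and 38 with 50 CPM, 44 and 25 with a minimum of 100 CPM, 87 and 60 with no filter, and 3 and 4 with median ratio scaling. They were 60 and 51 without Cxcl2 cells, 35 and 21 with members chosen by the 4 genes, and 64 and 46 without top cells. Lower genes were 3 with voom weights and 16 with a minimum of 20 CPM, and higher genes 20 with the mean over cells. Of limma genes, 362 of 481 values kept their side of the threshold or, from 1 library each, lay within 1 SE of the joint value, 93 kept direction only and 0 changed direction. The other 26, from 1 library each, kept direction and differed by more. The 362 include values under macrophage minimums of 1.0 and 2.0, which chose the same cells and could not move.

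Genes 2-fold higher in both libraries numbered 29, against 45 with 120 members, 16 with a pseudocount of 50 CPM, 19 with a minimum of 100 CPM, 18 without Cxcl2 cells and 17 without top cells. Genes lower in both numbered 19, against 30 with 40 members, 11 with a pseudocount of 50 CPM, 34 with a minimum of 20 CPM and 75 with no filter. A value from Heart1 alone was not run for the first choice, with 2 members there, and limma leaves no residual degrees of freedom with 1 library. Depth limits rare genes: in Heart1 a level of 1 UMI was 2.88 CPM.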
